A study of Mus musculus with 5 samples.

Results

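The genes described here are 9 genes of mature B lymphocytes: Ms4a1, Cd79a, Cd79b, Cd22, Cr2, Fcer2a, Btla, Bank1 and Ighm. They were taken by gene symbol from a table of 34970 genes, and 9 of 9 were found in it. The table holds RNA sequencing counts for 5 mouse libraries, 1 for each kind of cell and all labelled wild type, in a series about turning fibroblasts directly into macrophages. MCC carries the label of a myeloid-like cell complex. PB is labelled as blood cells, described in the design text as CD45-positive, CD45 being the leukocyte surface protein encoded by Ptprc. BM is bone marrow, iPSC is induced pluripotent stem cells and MEF is mouse embryonic fibroblasts. The sources used here do not give how MCC was made, the strain or age of the animals, or any pooling. With 1 library per kind of cell there is no spread between replicates, so no p-value is given and every difference compares these libraries only. Levels are in CPM, read counts scaled to a common library total, here after TMM scaling of that total. Brackets after a fold hold its 95% interval, which covers counting error only.

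B cells recognise antigen through the B cell receptor, a membrane immunoglobulin that signals through a pair of partner chains. Coreceptors tune that signal. Complement-coated antigen strengthens it through CD21, while receptors with inhibitory cytoplasmic motifs recruit phosphatases and weaken it. B cells are made in bone marrow from precursors that first assemble a heavy chain with a surrogate light chain, and they gain IgD, CD21 and CD23 as they mature and circulate. In the set, Ighm encodes the IgM heavy chain, and Cd79a and Cd79b encode the signalling chains of the receptor. Ms4a1 encodes CD20, a membrane protein that spans the membrane several times. Cr2 encodes the complement receptors CD21 and CD35, and Fcer2a encodes CD23, the low-affinity IgE receptor. Cd22 encodes a sialic acid-binding inhibitory receptor, and Btla an inhibitory receptor that binds HVEM and is also found on T cells and dendritic cells. Bank1 encodes a cytoplasmic scaffold of B cell receptor signalling, so it is not itself a surface protein.

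Total counts per library ranged from 30078366 in PB to 47557598 in MCC. The markers of each labelled cell type were at 5 CPM or more for 5 of 5 monocyte and macrophage genes in MCC, 5 of 5 fibroblast genes in MEF and 4 of 4 pluripotency genes in iPSC. The 5 fibroblast markers were at 5 CPM or more in MCC as well. PB and BM were mixtures: 6 of 6 B cell markers reached 5 CPM in each, as did 5 of 5 neutrophil markers. The 5 monocyte and macrophage markers reached it in PB and BM too, so they do not set MCC apart. Their summed levels were 2066 CPM in MCC, 1288 CPM in PB and 412.5 CPM in BM. Of 6 T cell markers, 6 reached 5 CPM in PB and 4 in BM. The code of the PB library is not close to the other 4 codes, so anything that goes with that code cannot be told apart from the PB group. In bulk libraries, fewer cells of a type and less RNA per cell cannot be told apart.

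The 9 genes lie on 8 mouse chromosomes, in GENCODE M21 coordinates on GRCm38/mm10. Cd79a (chromosome 7, 24897381 to 24902197, plus strand) and Cd22 (chromosome 7, 30865402 to 30880342, minus strand) share a chromosome. Ms4a1 is at chromosome 19, 11249675 to 11266241, and Cd79b at chromosome 11, 106311341 to 106314762, both on the minus strand. Cr2 is at chromosome 1, 195136811 to 195176716, and Fcer2a at chromosome 8, 3681737 to 3694175, both on the minus strand. Bank1 covers chromosome 3, 136053363 to 136326066, minus strand, and Btla chromosome 16, 45224315 to 45257670, plus strand. Ighm, the constant region of the heavy chain locus, is at chromosome 12, 113418558 to 113422730, minus strand. Of the exon bases of Cd22, 9.5% also lie in exons of Gm29439 on the opposite strand, and whether counting used strand is not stated. For the other 8 genes that share was 0%.

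Promoter sequences are shown for the gene that stood apart in MCC (Cd22), for a receptor signalling chain (Cd79a) and for the pair with the largest ratio of PB to BM (Btla and Cr2). They come from RefSeq on GRCm38.p6, which held windows for 6 of the 9 genes. Each is the part of the 250 bases before the RefSeq start that lies outside annotated exons, read 5′ to 3′ on the gene's strand. Capitals mark matches to any of 4 motifs on either strand: the octamer ATGCAAAT, the EBF motif, the Ets core GGAAGT and the E box CAGGTG.
Cd22, chr7:30879029-30879176, minus strand: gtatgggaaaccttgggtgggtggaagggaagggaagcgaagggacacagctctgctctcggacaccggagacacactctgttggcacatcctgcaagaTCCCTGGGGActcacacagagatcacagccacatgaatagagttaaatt
Cd79a, chr7:24897247-24897380, plus strand: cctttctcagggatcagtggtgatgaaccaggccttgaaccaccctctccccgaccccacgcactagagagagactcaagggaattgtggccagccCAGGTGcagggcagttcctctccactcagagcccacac
Btla, chr16:45224087-45224314, plus strand: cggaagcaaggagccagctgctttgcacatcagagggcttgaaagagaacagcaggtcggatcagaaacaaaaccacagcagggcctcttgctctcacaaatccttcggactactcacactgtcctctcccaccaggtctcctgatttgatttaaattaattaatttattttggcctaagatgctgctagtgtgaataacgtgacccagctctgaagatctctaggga
Cr2, chr1:195176720-195176969, minus strand: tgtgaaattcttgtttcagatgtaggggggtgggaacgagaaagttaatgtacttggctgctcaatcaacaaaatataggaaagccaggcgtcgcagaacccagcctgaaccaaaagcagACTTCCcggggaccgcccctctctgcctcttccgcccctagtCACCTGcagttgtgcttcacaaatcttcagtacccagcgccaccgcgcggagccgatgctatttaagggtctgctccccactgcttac
The match in Cd22 is to the EBF motif, whose letters read the same on both strands, and starts 49 bases before the RefSeq start, which lies inside the GENCODE span of the gene. Over all 32851 RefSeq windows, each longer than the stretches printed, 0.904% hold that motif, 1.74% the octamer, 23.8% the Ets core and 20.2% the E box. The match in Cd79a is to the E box, and those in Cr2 are to the Ets core and the E box. None of the 4 motifs overlapped another in these stretches, and the printed part of Btla held none of them. A match describes the letters in the window and no more.

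The 9 genes were at 5 CPM or more in PB and BM and below it in MCC, iPSC and MEF, with Cd22 in MCC as the exception. The number at 5 CPM or more was 1 in MCC, 9 in PB, 9 in BM, 0 in iPSC and 0 in MEF. Over all genes of the table, 32% were at 5 CPM or more in MCC, 29.3% in PB, 30.3% in BM, 31.7% in iPSC and 30.5% in MEF. Their reads made up 0.00104% of the counts in MCC (496 reads), 0.340% in PB (102173 reads), 0.160% in BM (65067 reads), 0.000555% in iPSC (243 reads) and 4.94e-05% in MEF (23 reads). The median member stood at 0.116 CPM in MCC, 175.7 CPM in PB, 61.2 CPM in BM, 0.325 CPM in iPSC and 0 CPM in MEF. PB was highest and BM next for 8 of the 9 genes, and for Cd79b the order of those libraries was the other way round. For 9 of 9 genes the counting intervals of PB and BM did not overlap, and the lower of these lay clear of the library at place 3. Further down, neighbours in the order were apart for 5 of 9 genes between places 3 and 4, and for 1 of 9 between the lowest pair. Intervals of levels that overlap do not show that levels are equal, and the interval of a ratio can still leave out 1, as for Cr2 in MCC and MEF.

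**Figure D1:**
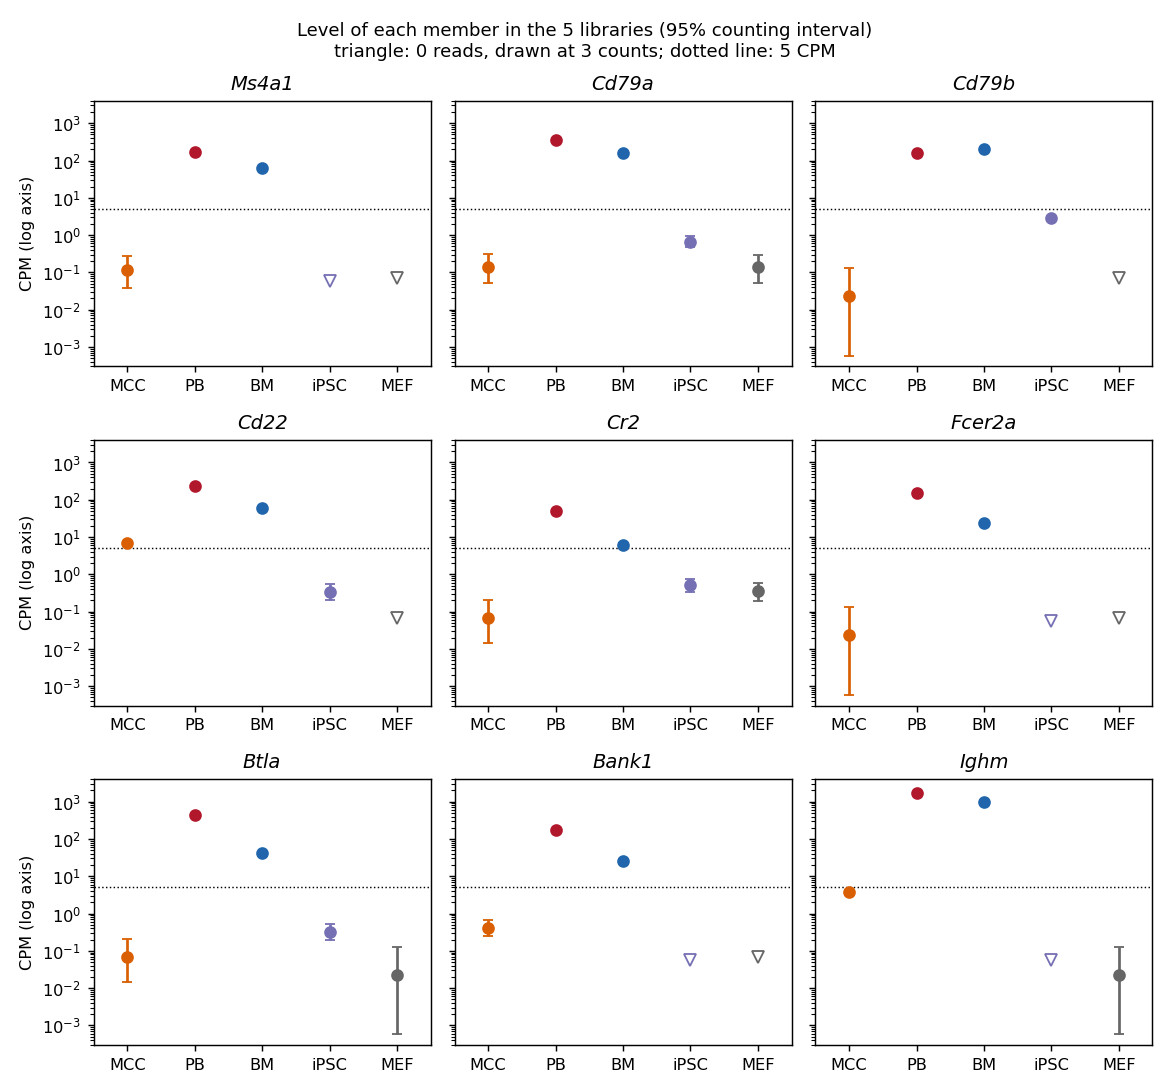
Level of each of the 9 genes in the 5 libraries, in CPM on a log axis, 1 panel per gene and 1 point per library, with 95% counting intervals. Open triangles mark 0 reads and sit at the level of 3 counts, and the dotted line is 5 CPM; Cd22 in MCC, at 6.87 CPM, is the only point of MCC, iPSC or MEF above it.

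Ighm, the IgM heavy chain gene, was the most abundant member in both native libraries. It had 162 reads (3.75 CPM) in MCC, 49498 reads (1657 CPM) in PB, 40974 reads (1006 CPM) in BM, 0 reads in iPSC and 1 read in MEF. Ranked by count, Ighm was gene 36 of the PB library and gene 80 of the BM library. Cd79a had 6 reads (0.139 CPM) in MCC, 10858 reads (363.5 CPM) in PB, 6620 reads (162.5 CPM) in BM, 35 reads (0.670 CPM) in iPSC and 6 reads (0.139 CPM) in MEF. Cd79b had 1 read in MCC, 4852 reads (162 CPM) in PB, 8485 reads (208 CPM) in BM, 146 reads (2.79 CPM) in iPSC and 0 reads in MEF. The receptor genes were thus at 162 CPM or more in PB and BM, and of the other libraries iPSC held the most Cd79b and MCC the most Ighm.

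Ms4a1, Cr2 and Fcer2a divided the libraries in the same way. Ms4a1 had 5 reads (0.116 CPM) in MCC, 5159 reads (173 CPM) in PB and 2565 reads (63.0 CPM) in BM, with 0 reads in iPSC and MEF. Cr2 had 3 reads (0.0694 CPM) in MCC, 1515 reads (50.7 CPM) in PB, 243 reads (5.97 CPM) in BM, 27 reads (0.517 CPM) in iPSC and 15 reads (0.347 CPM) in MEF. Cr2 was the least abundant member in PB and BM. Its level in MCC was 4.995-fold (1.41 to 26.9) lower than in MEF and 7.44-fold (2.29 to 38.3) lower than in iPSC, and the counting intervals of iPSC and MEF overlapped. Fcer2a had 1 read in MCC, 4607 reads (154 CPM) in PB, 966 reads (23.7 CPM) in BM and 0 reads in iPSC and MEF.

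The inhibitory receptor genes and the scaffold gene came next in role. Cd22 had 297 reads (6.87 CPM) in MCC, 6913 reads (231 CPM) in PB, 2491 reads (61.2 CPM) in BM, 18 reads (0.344 CPM) in iPSC and 0 reads in MEF. Btla had 3 reads (0.0694 CPM) in MCC, 13524 reads (453 CPM) in PB, 1678 reads (41.2 CPM) in BM, 17 reads (0.325 CPM) in iPSC and 1 read in MEF. Bank1 had 18 reads (0.417 CPM) in MCC, 5247 reads (175.7 CPM) in PB, 1045 reads (25.7 CPM) in BM and 0 reads in iPSC and MEF. The counting intervals of MCC and MEF did not overlap for Cd22 and Bank1, and overlapped for Btla.

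Levels of different genes were compared per kilobase of exon, as CPM per kilobase. In PB the order was Ighm (879), Cd79a (249.5), Btla (133), Cd79b (113.5), Fcer2a (49.9), Cd22 (45.9), Ms4a1 (27.9), Bank1 (23.5) and Cr2 (6.25), and no neighbouring counting intervals overlapped. In BM Cd79b (146) stood second after Ighm (533) and ahead of Cd79a (111.5). Btla and Cd22, at 12.1 each, did not differ beyond counting error there, and Ms4a1 followed at 10.2 CPM per kilobase. When the longest transcript replaced the union of exons as the length, the order in PB was the same, and in BM Ms4a1 moved ahead of Cd22 and Btla, so the order of these 3 genes in BM is not settled. In MCC only Ighm (1.99) and Cd22 (1.36) were above 0.1 CPM per kilobase.

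PB was next set against BM, to see how the mature genes stood in blood relative to the tissue where B cells are made. PB is described as CD45-positive, and no such description is given above for BM. Any effect of that cannot be told apart from blood against marrow. Of the 9 genes, 8 were higher in PB and 1, Cd79b, was lower. Counted by a ratio of at least 4-fold with at least 5 CPM in the higher library, 4 of 9 were higher in PB and 0 were lower. Over the 11377 genes tested the same rule called 6.32% higher in PB and 9.68% lower. The 4 genes were Btla at 11.0-fold (10.5 to 11.6), Cr2 at 8.50-fold (7.42 to 9.78), Bank1 at 6.85-fold (6.41 to 7.32) and Fcer2a at 6.50-fold (6.07 to 6.98). The median log2 ratio of the 9 genes was 1.92, beside −0.18 for all genes tested.

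**Figure D2:**
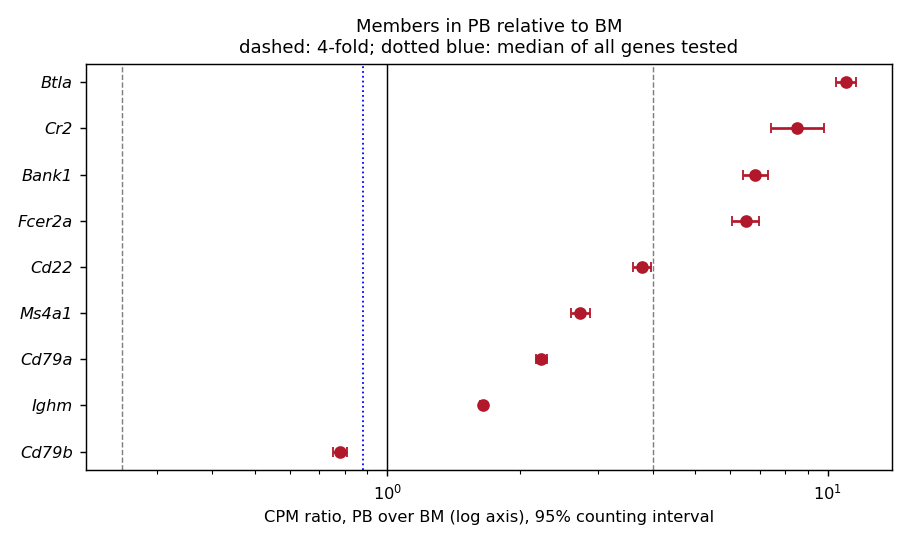
Ratio of CPM in PB to CPM in BM for each of the 9 genes, on a log axis, with 95% counting intervals. The dashed lines mark 4-fold in either direction and the dotted line the median of all genes tested; Btla, Cr2, Bank1 and Fcer2a lie beyond 4-fold higher in PB, and Cd79b alone lies on the side of BM.

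The genes of the receptor itself (Ighm, Cd79a and Cd79b) were closer between the native libraries than the other members were. Cd22 was 3.79-fold (3.62 to 3.96) higher in PB, just short of the rule, and its log2 ratio was 1.92. Under DESeq2 size factors that log2 ratio was 2.10, past the rule, which brings the count of higher members to 5. Ms4a1 was 2.74-fold (2.62 to 2.88) and Cd79a 2.24-fold (2.17 to 2.31) higher. Ighm was 1.65-fold (1.63 to 1.67) higher in PB, and Cd79b was 1.28-fold (1.24 to 1.33) lower in PB. The ratios of PB to BM thus spanned 14.1-fold within the set. Cd79a and Cd79b encode the chains of a single heterodimer, and for each 100 reads of Cd79a there were 44.7 reads of Cd79b in PB and 128 in BM.

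Other B cell genes were compared between PB and BM by stage. Their lists were chosen with earlier results of these data known. Among 15 genes of B cell precursors, 13 reached 5 CPM in PB or BM; 2 were at least 4-fold higher in PB and 7 lower. Their median log2 ratio was −2.16. Vpreb1 and Igll1 encode parts of the surrogate light chain and were named after their values were seen. They had 1 and 4 reads in PB against 961 and 1142 reads in BM. Rag1 and Dntt, of the same list and also named after their values were seen, were lower in PB but short of the rule. Their reads were 905 and 658 in PB against 3268 and 1839 in BM. The precursor genes counted as higher in PB were Il7r and Lef1, both also expressed in T cells. Il7r, the interleukin-7 receptor gene, was 9.35-fold (8.86 to 9.88) higher, and Lef1, a transcription factor gene, 11.9-fold (10.6 to 13.3). Sox4, a transcription factor gene, was 4.46-fold (4.01 to 4.97) lower and Cd34, a progenitor surface gene, 60.7-fold (38.3 to 103) lower in PB, while Cd93, a gene of early B cells and myeloid cells, had 66.2 CPM in PB and 126 CPM in BM. Ighd, which encodes the IgD heavy chain of mature naive B cells, was 4.98-fold (4.80 to 5.16) higher in PB, at 448 CPM in PB and 90.1 CPM in BM. For each 100 reads of Ighm there were 27.1 reads of Ighd in PB and 8.96 in BM.

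Transcription factor genes of B cells followed. Of 15 genes, 2 were at least 4-fold higher in PB and 0 lower. The list's median log2 ratio was 1.22. The 2 genes were Ets1, a factor of B and T cells, at 6.85-fold (6.69 to 7.02) higher, and Pou2f2 at 4.87-fold (4.59 to 5.17). Klf2, a factor of resting lymphocytes, was at 531 CPM in PB and 184 CPM in BM. Its ratio of 2.89-fold (2.81 to 2.97) was short of the rule. Pax5, the B cell identity factor and a fixed marker here, was 3.58-fold (3.47 to 3.70) higher in PB and so short of the rule. Of 23 genes of B cell receptor signalling, 3 were higher and 0 lower. Ptprc was 4.44-fold (4.37 to 4.504) higher in PB. It encodes CD45, for which PB is described as positive, so that call is not separate from how PB was described. Syk, the kinase that binds the phosphorylated receptor chains, was 1.504-fold (1.48 to 1.53) higher. Of 19 tested genes of other B cell surface proteins, 3 were higher in PB and 1 lower. The lower gene was Cd24a, a surface glycoprotein gene of immature B cells, neutrophils and red cell precursors, at 4.39-fold (4.29 to 4.49) lower.

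Genes of other cell types differed between PB and BM as well, and their part in the ratios above was not tested. Of 12 T cell genes, 12 were at least 4-fold higher in PB (median log2 ratio 4.28), with summed levels of 1596 CPM in PB and 106 CPM in BM. T cells express Btla too. Of 8 neutrophil genes, 7 were at least 4-fold lower in PB, with summed levels of 7264 CPM in PB and 60861 CPM in BM. Of 8 dendritic cell genes 6 were tested, of which 1 was higher and 2 were lower in PB, and the summed levels were 157 CPM in PB and 140.0 CPM in BM.

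**Figure D3:**
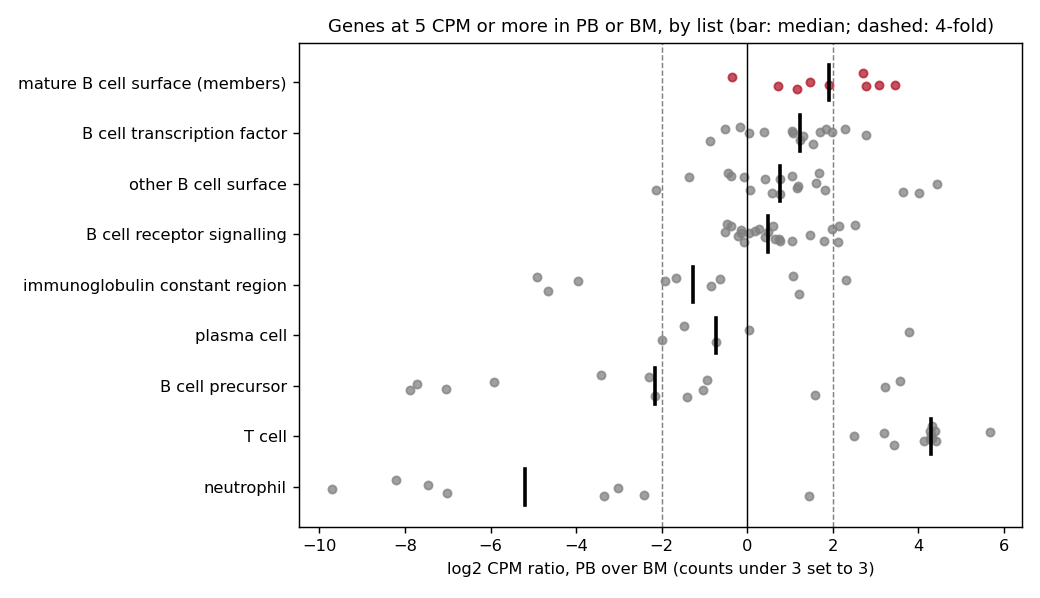
Log2 ratio of CPM in PB to CPM in BM for genes at 5 CPM or more in either library, 1 row per gene list, with 1 point per gene, a bar at each median and dashed lines at 4-fold. The 9 mature B cell surface genes (top row) have a median of 1.92, the B cell precursor genes −2.16, the T cell genes 4.28 and the neutrophil genes −5.19.

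MCC was set against PB and BM, the native sources of blood cells. All 9 genes were at least 4-fold lower in MCC than in PB, where the rule called 15.4% of the 12545 genes tested lower in MCC and 21.5% higher. All 9 were also at least 4-fold lower in MCC than in BM, where it called 13.5% of 12427 genes lower and 15.6% higher. These comparisons share the MCC library. The median log2 ratio of the 9 genes was −10.54 to PB and −8.42 to BM, beside 0.38 and 0.11 for all genes tested.

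Cd22 was the member with the smallest deficit. It was 33.7-fold (29.97 to 37.9) lower in MCC than in PB and 8.90-fold (7.89 to 10.1) lower than in BM. Bank1 was 422-fold (267 to 712) lower than in PB and 61.6-fold (38.8 to 104) lower than in BM. Ighm was 442-fold (379 to 519) lower than in PB and 268-fold (230 to 315) lower than in BM. For Cd79a the folds were 2618 (1202 to 7135) to PB and 1170 (537 to 3190) to BM, and for Ms4a1 1493 (639 to 4599) and 544 (233 to 1677). Cd79b, Cr2, Fcer2a and Btla had 1 to 3 reads in MCC, so their folds are wide; that of Cr2 to BM was 85.9 (29.1 to 419.5) and that of Btla to PB 6521 (2231 to 31624).

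**Figure D4:**
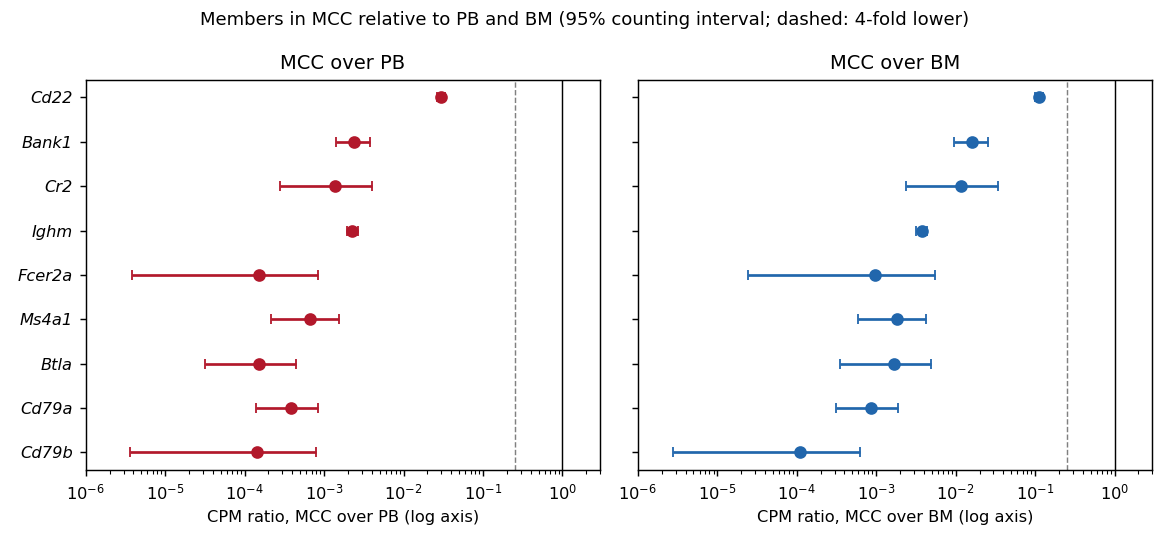
Ratio of CPM in MCC to CPM in PB (left) and to CPM in BM (right) for each of the 9 genes, on log axes, with 95% counting intervals; the dashed line marks 4-fold lower and the solid line equality. All points lie left of the dashed line, and Cd22 lies nearest to it in both panels, at 33.7-fold and 8.90-fold lower.

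The members did not stand in the same proportions in MCC as in PB or BM. Cd22 took 59.9% of the members' reads in MCC (exact binomial interval 55.4 to 64.2%), against 6.77% in PB and 3.83% in BM. Ighm took 32.7% in MCC, 48.4% in PB and 63.0% in BM. The other 7 genes together took 7.46% in MCC (37 of 496 reads), 44.8% in PB and 33.2% in BM. For each 100 reads of Cd22 there were 2.02 reads of Cd79a in MCC (0.736 to 4.45), against 157 in PB and 266 in BM. Likewise there were 1.68 reads of Ms4a1 per 100 reads of Cd22 in MCC (0.543 to 3.97), against 74.6 in PB and 103 in BM.

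**Figure D5:**
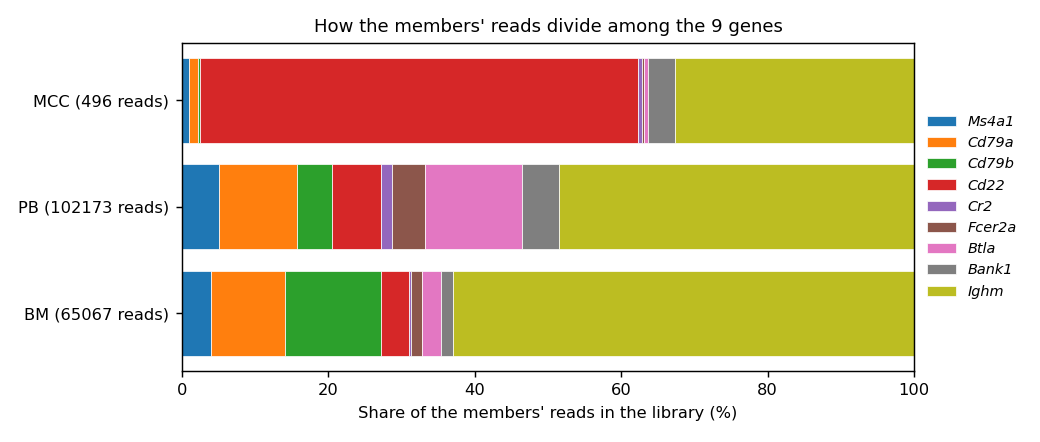
Share of the members' reads that belongs to each of the 9 genes, in percent, in MCC, PB and BM, with the number of reads beside each bar. Cd22 takes 59.9% of the bar of MCC, against 6.77% of that of PB and 3.83% of that of BM.

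The other immunoglobulin genes were low beside Ighm in MCC. Ighm was at 3.75 CPM (162 reads) in MCC. The 11 other constant region genes examined summed to 0.417 CPM there, with 6 of them at 0 reads. Igkc, the kappa light chain gene, had 8 reads in MCC, or 4.94 per 100 reads of Ighm (2.10 to 9.97), against 40.04 in PB and 119 in BM. The 128 heavy chain variable segments (Ighv) summed to 5 reads in MCC, or 3.09 per 100 reads of Ighm (0.989 to 7.35), against 22.5 in PB and 84.4 in BM. Of the B cell marker Pax5, MCC had 2 reads. Of 15 B cell transcription factor genes, 1 was higher and 12 were lower in MCC than in PB, and 1 was higher and 9 were lower than in BM. The higher gene was Id3, an inhibitor of E proteins that many cell types express, at 105 CPM in MCC, 20.02 CPM in PB, 9.55 CPM in BM and 180.2 CPM in MEF. Tcf3, one of the genes that encode E proteins, had 160.4 CPM in MCC, 151 in PB and 277.5 in BM. Ebf1, another transcription factor gene of B cells that is also expressed in mesenchymal cells, had 48.9 CPM in MCC, against 37.1 CPM in MEF.

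Genes of neutrophils and T cells also had reads in MCC, and how the members stood beside them depended on the library used as the base. Such reads were not limited to MCC and the native libraries. Lck, a T cell gene, had 30 reads in MCC, 85 in MEF and 475 in iPSC, whereas Cd28 had 1050 in MCC, 1 in MEF and 12 in iPSC. As a percentage of the level in BM, the level in MCC was 11.2% for Cd22, 1.62% for Bank1, 1.16% for Cr2, 0.373% for Ighm and 0.0111% to 0.184% for the other 5 members. On that base the 8 neutrophil genes ran from 0% (Ly6g) to 1.46% (Csf3r) with a median of 0.00679%, and the 12 T cell genes from 0% to 607% (Cd28) with a median of 0.560%. The median member, at 0.184%, thus lay above the median neutrophil gene and below the median T cell gene. As a percentage of the level in PB, Cd22 stood at 2.97%, Bank1 at 0.237% and Ighm at 0.226%. On that base the neutrophil genes had a median of 0.588% and reached 6.36% (Mpo), while the T cell genes had a median of 0.0296%. The median member, at 0.067% of PB, then lay below the median neutrophil gene and above the median T cell gene. Ly6g, Csf3r and Mpo, as the ends of these ranges, were named after their values were seen. Carry-over of reads or cells from the native libraries was not tested.

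MCC was then set against MEF, since the series title names fibroblasts as the start of the conversion, and against iPSC. Against MEF, 1 of the 9 genes was counted as higher in MCC and 0 as lower, where the rule called 8.05% of 11720 genes higher and 2.71% lower. Against iPSC, 1 of 9 was higher and 0 lower, where the rule called 11.3% of 12442 genes higher and 9.77% lower (1410 and 1215 genes, or 1161 and 1613 when libraries were scaled by total counts). In both cases the gene was Cd22, and the other 8 were below 5 CPM in both libraries. Cd22 exceeded MEF in MCC by at least 99.1-fold when the 0 reads of MEF are set to 3 counts, with a 95% lower limit of 80.1-fold from the counts themselves, and iPSC by 19.96-fold (12.4 to 34.2). Below the 5 CPM minimum, Ighm was 162-fold (28.7 to 6444) higher in MCC than in MEF and, on the same floor, at least 65.3-fold higher than in iPSC (95% lower limit 52.5). Bank1 exceeded MEF by at least 6.01-fold (lower limit 4.40) and iPSC by at least 7.26-fold (lower limit 5.32). Cd79b, with 1 read in MCC and 146 in iPSC, was 121-fold (21.3 to 4799) lower in MCC than in iPSC.

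Genes that act with these proteins were mostly at 5 CPM or more in MCC. Of 23 genes of B cell receptor signalling, 20 were at 5 CPM or more in MCC, against 23 in PB, 23 in BM, 14 in iPSC and 8 in MEF. Of the 20 genes tested against MEF, 12 passed 4-fold on the side of MCC and 0 on that of MEF. Their median log2 ratio was 4.15. Ptpn6, which encodes the phosphatase SHP-1 that CD22 recruits, was at 192 CPM in MCC, 305 in PB, 425 in BM, 18.0 in iPSC and 0.486 in MEF. Csk, a kinase that holds Src family kinases in check, had 141 CPM in MCC, against 130.4 CPM in MEF, a ratio of 1.08. Many of these signalling genes also work in myeloid cells. The 5 monocyte and macrophage markers reached 5 CPM in MCC, as they did in PB and BM. Any part of myeloid cells in the Cd22 level was not tested.

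Ligands and complex partners differed gene by gene. Cd81, a tetraspanin gene whose product associates with CD21, was at 439.5 CPM in MCC, 35.4 in PB, 90.5 in BM and 418 in MEF. It was 12.4-fold (11.7 to 13.2) higher in MCC than in PB while Cr2 was 730.5-fold (249.5 to 3546) lower. C3, the source of the complement fragments that CD21 binds, was at 239 CPM in MCC, 238 CPM in PB and 1303 CPM in BM. C4b, a complement component gene, was 5.15-fold (4.76 to 5.57) higher in MCC than in BM. Tnfrsf14, which encodes the BTLA ligand HVEM and was chosen with its values known, was at 7.50 CPM in MCC, 43.1 CPM in PB and 99.9 CPM in BM. Of the 12 partner genes, 11 were at 5 CPM or more in MCC.

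Cd22 belongs to the Siglec family of sialic acid-binding lectins, whose other members did not all stand as Cd22 did. Of 8 other Siglec genes, 3 were at 5 CPM or more in MCC, 5 in PB, 6 in BM, 0 in iPSC and 1 in MEF. Siglec1, the macrophage receptor sialoadhesin, was at 55.8 CPM in MCC, 14.1 in PB and 44.8 in BM, and 345-fold (167 to 858) higher in MCC than in MEF. Cd33, a myeloid Siglec gene, was at 35.7 CPM in MCC, 364 in PB and 342.5 in BM. Siglecg, the other inhibitory Siglec of B cells, had 8.10 CPM in MCC, against 57.2 CPM in MEF, a level 7.06-fold (6.31 to 7.92) lower in MCC. Of 20 other B cell surface genes, 11 reached 5 CPM in MCC, 19 in PB, 19 in BM, 4 in iPSC and 5 in MEF. Of those tested, MCC had 1 higher and 14 lower of 19 against PB, 1 higher and 12 lower of 19 against BM, and 6 higher and 1, Siglecg, lower of 11 against MEF. Cd37, a leukocyte tetraspanin gene, had 71.5 CPM in MCC, which was 7.01-fold (6.75 to 7.29) lower than in PB, 4.67-fold (4.49 to 4.86) lower than in BM and 516-fold (237 to 1406) higher than in MEF.

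Genes with the most similar pattern over the 5 libraries were found by the root mean square difference of log2(CPM + 0.1), centred on each gene's mean. The search covered 12795 genes that reached 5 CPM in any library, without predicted genes and receptor segments. Nearest to the mean profile of the 9 members was Ciita, the MHC class II transactivator gene, with a difference of 0.37. It was at 0.278 CPM in MCC, 145 in PB and 39.8 in BM. H2-DMb2, an MHC class II chaperone chain gene, followed at 0.38, and then Cd101 (0.45), Jaml (0.46), Mefv (0.47), Grap2 (0.48), Zfp831 (0.51), Adgre4 (0.51), Gimap1 (0.58) and Itgax (0.60). Nearest to Cd22 were Rasal3 (0.39), Nlrp3 (0.43) and Tmem71 (0.44), each between 3.63 and 3.91 CPM in MCC. Nearest to Btla were Grap2 (0.48), Ikzf3 (0.57) and Sh2d2a (0.63), and nearest to Ighm, at larger differences, Cytip (0.97), Csf3r (0.98) and Slfn4 (1.09). Of these near genes, Ikzf3 is in the B cell transcription factor list, Itgax in the dendritic cell list and Csf3r in the neutrophil list. A near profile over 5 libraries thus does not mark a gene of B cells. Among the members, Fcer2a (0.53) and Ms4a1 (0.54) lay closest to the mean profile, and Ighm (2.15), Cr2 (1.93), Cd79b (1.78) and Cd22 (1.67) farthest from it.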

How the data were processed

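The deposited values are whole-number read counts per gene symbol, not normalized, for 5 libraries of polyA RNA, which per the labels' protocols came from total RNA extracted with Trizol. The submitters' processing notes name STAR, featureCounts and mm10; no version, annotation, strand setting or filter is given in those sources. Each of the 5 columns was matched to its library by its library code, and 0 columns were left unused. Symbols of near-identical copies (the Iglc genes, the Ighg genes and the variable segments) may share reads, so their counts are uncertain.

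CPM was computed here on library sizes scaled by TMM with edgeR 4.0.16 in R 4.3.3. Ratios, exact intervals (Clopper-Pearson, conditional binomial, and exact Poisson for levels) and figures came from Python 3.11.15 with numpy 2.4.6, pandas 2.3.3, scipy 1.17.1 and matplotlib 3.10.9. With 1 library per group no test was possible, so a gene was counted as higher or lower by a ratio of at least 4-fold, with any count below 3 raised to 3, where the higher library reached 5 CPM. A fold against 0 reads is a lower bound against 3 counts, which are 0.0694 CPM in MCC, 0.100 in PB, 0.0737 in BM, 0.0574 in iPSC and 0.0694 in MEF. Reads carried no stated molecular identifiers, so intervals cover counting error only.

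The 9 members, 13 other gene lists (149 distinct symbols, 149 in the table) and 4 motifs were chosen with earlier results of these data known. From each list described, the genes named were drawn from the 2 highest in MCC, the 2 highest in PB or BM and those counted against the direction of most of the list; others are said to be chosen after their values were seen, and the markers Pax5 and Ebf1 were fixed as such. Alternatives were DESeq2 1.42.0 size factors, total counts, TMM without the most abundant genes, other CPM minimums, fold thresholds, count floors and lengths, the counting bound, and TMM without PB.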

Additional observations from a re-analysis of the deposited data

How the results depend on the processing

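No paired analysis was possible because each group has 1 library. Under DESeq2 size factors, total counts and TMM without the most abundant genes, the counts of members called and of members at 5 CPM or more held within 1.5 times of those reported. So did the counts called with the counting bound and with a count floor of 1. Other thresholds moved some of them. At 2-fold, 7 members were higher in PB than in BM, and at 8-fold 2 were. With no minimum CPM, 4 members were lower and 3 higher in MCC than in iPSC, and 1 was lower and 3 were higher in MCC than in MEF. With a minimum of 20 CPM, 0 members were higher in MCC than in iPSC and 0 than in MEF, and 0 members reached that level in MCC. With a minimum of 1 CPM, 2 members reached it in MCC and 1 in iPSC. The Cd22 call in MCC against MEF and iPSC thus rests on a level of 6.87 CPM, just above the minimum.

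DESeq2 size factors moved the median log2 ratio of all genes tested to 0.07 for MCC over PB (0.38 under TMM) and to 0.02 for PB over BM (−0.18 under TMM). The members' medians then were −10.82 and 2.10. For MCC over iPSC, total counts gave 41.9% of the called genes on the higher side, against 53.7% under TMM. Under TMM without PB, an alternative chosen after seeing the data, the counts over MCC, BM, iPSC and MEF were as reported. Depth limits the folds of Cd79b, Cr2, Fcer2a and Btla in MCC, which rest on 1 to 3 reads.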

Other observations

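Immunoglobulin genes other than Ighm did not all divide PB and BM in the same way. The genes of 6 switched isotypes (Ighg1, Ighg2b, Ighg2c, Ighg3, Igha and Ighe) had 25.9 reads per 100 reads of Ighm in PB and 223 in BM. Of the 10 constant region genes tested between these libraries, 1, Ighd, was at least 4-fold higher in PB, 3 were lower and 6 were neither. The lambda chain genes, named after their values were seen, were split. Iglc2 was 2.09-fold (1.96 to 2.23) and Iglc3 2.29-fold (2.03 to 2.60) higher in PB, and Iglc1 was 1.55-fold (1.44 to 1.66) lower. Igha, the IgA heavy chain gene, was at 385 CPM in PB and 1228 CPM in BM, and Igkc at 663 and 1198 CPM. Jchain, which encodes the joining chain of secreted IgM and IgA, was at 63.7 CPM in PB and 253 CPM in BM. Xbp1, a transcription factor gene of secretory cells, was at 96.2 CPM in PB and 160.5 CPM in BM. Of the 8 plasma cell genes 5 were tested, of which 1 was at least 4-fold higher in PB and 0 were lower. That gene, named after its values were seen, was Prdm1, a transcription factor gene of plasma cells that T cells also express, at 13.7-fold (11.2 to 16.8) higher in PB (37.0 CPM in PB and 2.70 CPM in BM). Secreted and membrane forms of the heavy chains are not separated in counts per gene symbol.

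Of 128 Ighv segments, 74 reached 1 CPM in PB and 79 in BM. The leading segment took 5.54% of the Ighv reads in PB (Ighv1-26) and 19.5% in BM (Ighv9-3). Of 127 Igkv segments, 74 reached 1 CPM in PB and 71 in BM, with leading shares of 7.53% (Igkv1-117) and 15.4% (Igkv17-121). The ratio of Igkc to summed Iglc reads was 4.59 in PB and 10.8 in BM.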
